A study of Homo sapiens with 12 samples.

Results

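The 10 genes PHGDH, PSAT1, PSPH, SHMT2, MTHFD2, ALDH1L2, CTH, CBS, PCK2 and ASNS encode enzymes that make serine, load its carbon onto folate in mitochondria, turn it into cysteine, or supply phosphoenolpyruvate and asparagine. They were chosen by symbol from the 53717 genes of the count table. All 10 were present and all 10 passed the filter on low counts. The RNA came from the human embryonic stem cell line H9, long established, grown in RSeT medium, a formulation for naive-type pluripotent cells. The first group received ASO-L1, an oligo antisense to RNA of the retrotransposon LINE1, the second sO-L1, the sense oligo of that element, and the third ASO-Ctr, an antisense oligo without a specific target. Each group had 4 libraries, 12 in all. All 3 groups shared lipofection of a fluorescein-labelled oligo at 25 nM, sorting of fluorescent cells at 48 h, and the additives trans-ISRIB (0.7 uM), emricasan (5 uM) and Y-27632 (10 uM), which were taken out after 24 h. Trans-ISRIB counters the block on translation set by the integrated stress response, and emricasan inhibits caspases.

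Serine is built from the glycolytic intermediate phosphoglycerate by PHGDH, PSAT1 and PSPH. In mitochondria SHMT2 moves a carbon of serine onto tetrahydrofolate and leaves glycine. MTHFD2 oxidises that folate to its formyl form, from which formate is released for purine and methyl synthesis in the cytosol. Serine also condenses with homocysteine through CBS, and CTH cleaves the product to cysteine, the step that gives transsulfuration its name. Several of these genes are textbook targets of ATF4, the transcription factor of the integrated stress response.

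Library totals ran from 22830894 counts in ASO-Ctr replicate 1 to 55056032 in sO-L1 replicate 2. A member had between 314 (CTH) and 21726 counts (CBS) in a library. Listed pluripotency markers summed to 7888 to 8165 CPM (counts scaled by TMM library size) with ASO-L1, 8006 to 8559 CPM with sO-L1 and 8058 to 8368 CPM with ASO-Ctr, and 10 of 10 were at 1 CPM or more in each group. Among them LIN28A, ZFP42, SALL4 and L1TD1 were called lower in edgeR with ASO-L1 against ASO-Ctr, and DPPA4 higher. Against sO-L1, the calls were L1TD1, LIN28A, ZFP42 and SOX2 lower and DPPA4 higher. Of 8 listed fibroblast markers 3 reached 1 CPM, and they summed to 115 to 135, 104 to 133 and 117 to 143 CPM in the 3 groups. Of these THY1 was higher with ASO-L1 (73.6 ± 6.04 CPM, against 47.3 ± 3.71 with sO-L1 and 54.8 ± 1.28 with ASO-Ctr) and COL1A2 lower (36.6 ± 4.65 CPM, against 59.2 ± 8.69 with sO-L1 and 61.3 ± 8.71 with ASO-Ctr), both called in edgeR against each group, and COL1A1 was not called (13.3 ± 2.65 with ASO-L1, 11.9 ± 2.59 with sO-L1 and 12.4 ± 3.43 CPM with ASO-Ctr). LUM had 0 CPM in all 3 groups, and DCN 0.0172 CPM with ASO-L1 and 0 in the others. Naive-type markers summed to 73.2 to 107 CPM in ASO-L1 libraries, 51.3 to 64.9 with sO-L1 and 49.2 to 61.5 CPM with ASO-Ctr. Of these KLF4, DNMT3L and TFCP2L1 were called higher with ASO-L1 against each group, and DPPA5 lower. KLF4 was at 47.5 ± 8.88 CPM with ASO-L1, against 22.9 ± 3.58 with sO-L1 and 20.1 ± 3.04 with ASO-Ctr. DPPA5 was at 3.43 ± 0.523, 7.74 ± 3.16 and 7.42 ± 3.19 CPM in the same order. KLF17, KHDC1L and ARGFX did not pass the filter on low counts. Trophectoderm markers summed to 3.08 to 4.15 CPM with ASO-L1, 1.44 to 3.21 with sO-L1 and 1.64 to 3.47 CPM with ASO-Ctr, and GATA2 among them was called higher with ASO-L1 against both (2.49 ± 0.425 CPM, against 1.43 ± 0.379 with sO-L1 and 1.40 ± 0.322 with ASO-Ctr). Primitive endoderm markers summed to 8.11 to 9.87, 17.3 to 19.9 and 15.4 to 16.4 CPM in the same order. Of the 6 listed, only PDGFRA reached 1 CPM (means 8.19, 17.8 and 15.3 CPM), and it was called lower with ASO-L1 against both. Neuroectoderm markers summed to 14.02 to 17.1, 20.7 to 22.9 and 22.3 to 24.2 CPM. Among them DCX was called lower with ASO-L1 against both (means 12.1, 19.6 and 20.9 CPM). PAX6 went the other way and was called higher against both (means 2.91, 1.62 and 1.81 CPM). What part these shifts have in the results was not tested. The count table held 0 entries for LINE1, and its level was not analysed here. In these bulk libraries, fewer cells with a transcript and less of it per cell cannot be told apart.

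With ASO-L1, 8 of the 10 enzymes differed from ASO-Ctr and they split in direction. MTHFD2, PSAT1, ASNS, PSPH and SHMT2 were higher, CTH, ALDH1L2 and PCK2 were lower, and PHGDH and CBS were not called. The changes were small. The largest rise was 1.38-fold (MTHFD2) and the largest fall 1.36-fold (CTH). By edgeR's quasi-likelihood test with Benjamini-Hochberg adjustment, a call being an adjusted p under 0.05, 5 of 10 members were called higher against 21.2% of the 17264 genes tested, and 3 of 10 lower against 23.1%. In either direction this was 8 of 10 members against 44.3% of genes. The median log2 fold change of the members was 0.11, against -0.0028 over all genes tested. Without the replicate number in the model, 3 members were called higher and 1 lower. The shares of genes above come from the model with that number, and shares without it are not given here.

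**Figure D1:**
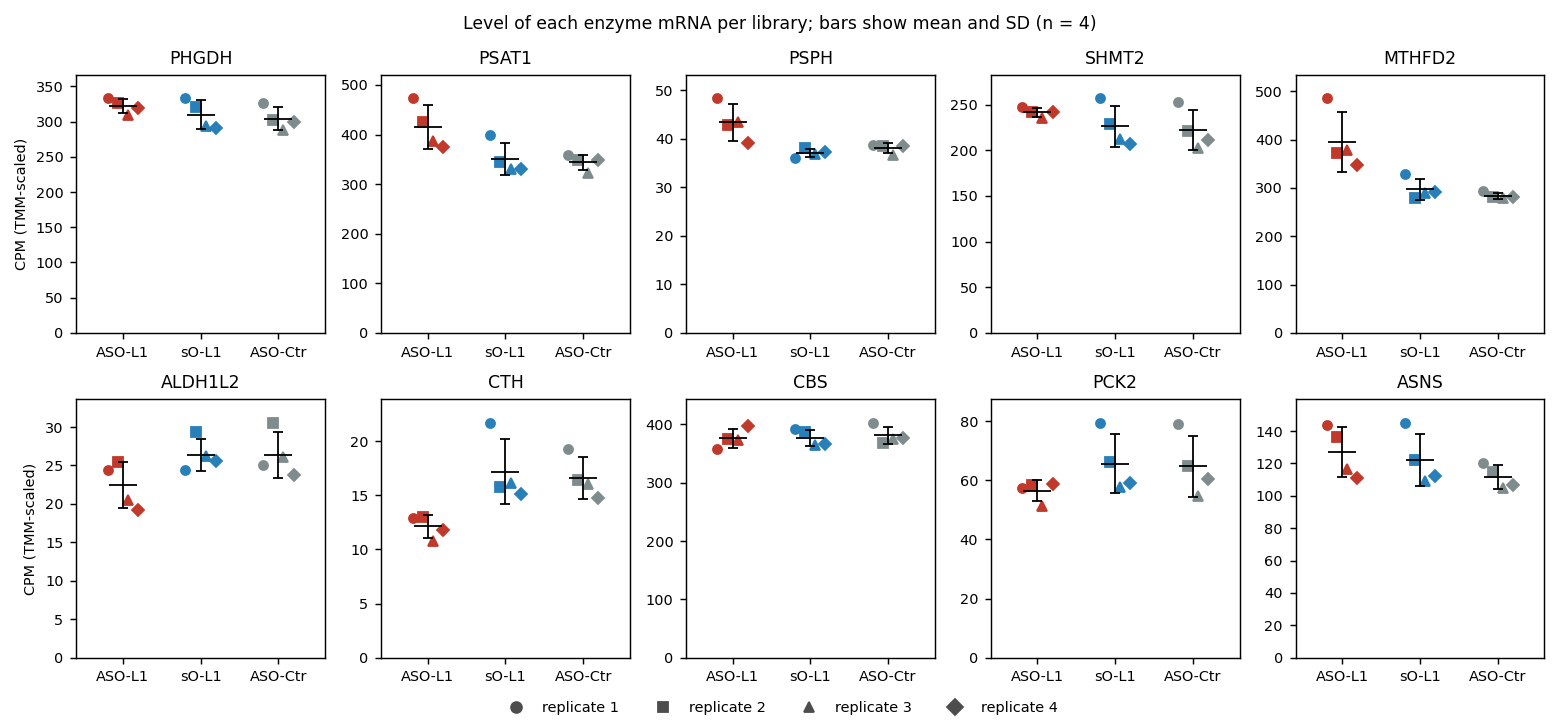
CPM of each of the 10 enzyme mRNAs (vertical axes, from 0) in ASO-L1, sO-L1 and ASO-Ctr libraries (horizontal axes); symbols mark the replicate number, and black bars give the mean and SD of 4 libraries. MTHFD2 sits at 347 to 486 CPM with ASO-L1, above every library of the other groups, and CTH at 10.8 to 13.05 CPM, below every one of them.

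In the serine synthesis pathway the first enzyme differed least between the groups. PHGDH, the dehydrogenase that commits phosphoglycerate to serine, was at 333, 327, 309 and 319 CPM in ASO-L1 replicates 1 to 4, 334, 321, 294 and 291 CPM in sO-L1, and 327, 303, 288 and 299 CPM in ASO-Ctr. The groups overlapped. It was not called against ASO-Ctr (log2 0.08, SE 0.04, interval 0.0023 to 0.16, edgeR adjusted p = 0.0886), although all 4 replicate numbers were higher. Each of the 4 replicate numbers and each of the 12 libraries was left out in turn, which gives 16 leave-out fits. Without replicate 1 PHGDH was called (adjusted p = 0.00552), and also without ASO-L1 replicate 1, while over all 16 fits the adjusted p reached 0.302. PHGDH was also called with a filter of 1 CPM in 4 libraries (adjusted p = 0.04485), with 1 surrogate variable, a hidden covariate estimated from all genes (log2 0.12, 0.0177), and by limma on the authors' log2 values (0.0394).

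PSAT1, the aminotransferase of the second step, rose with ASO-L1. Its levels were 474, 424, 387 and 374 CPM in ASO-L1 libraries, 399, 344, 330 and 331 CPM with sO-L1, and 359, 348, 323 and 348 CPM with ASO-Ctr. Every ASO-L1 library lay above every ASO-Ctr library. The difference was 1.20-fold (interval 1.12 to 1.28; log2 0.26, SE 0.04, edgeR adjusted p = 0.000144) against ASO-Ctr and 1.18-fold (1.11 to 1.26; log2 0.24, adjusted p = 0.000327) against sO-L1, where sO-L1 replicate 1 overlapped the ASO-L1 range. The call held in all 16 leave-out fits of both comparisons.

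PSPH, the phosphatase that releases serine, was at 48.4, 42.8, 43.4 and 39.1 CPM in ASO-L1 libraries, 36.1, 38.2, 36.9 and 37.3 CPM with sO-L1, and 38.8, 38.6, 36.6 and 38.5 CPM with ASO-Ctr. The ASO-L1 libraries were all above those of both other groups, replicate 4 only just. The fold was 1.14 (1.04 to 1.24; log2 0.18, SE 0.06, edgeR adjusted p = 0.0186) against ASO-Ctr and 1.17 (1.07 to 1.27; log2 0.22, adjusted p = 0.00568) against sO-L1. Against ASO-Ctr the call was lost without replicate 2, without replicate 3, without ASO-L1 replicate 3 and without ASO-Ctr replicate 1, 2 or 3 (highest adjusted p = 0.12). With 1 surrogate variable added it was lost in both comparisons (log2 0.07 and 0.12).

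Of the mitochondrial folate enzymes, MTHFD2 had the largest rise of the 10 members. Its levels were 486, 371, 378 and 347 CPM in ASO-L1 libraries, 329, 278, 290 and 291 CPM with sO-L1, and 293, 281, 280 and 281 CPM with ASO-Ctr. The groups did not overlap, and ASO-L1 replicate 1 was the highest library. The difference was 1.38-fold (1.28 to 1.497; log2 0.47, SE 0.05, edgeR adjusted p = 3.06e-06) against ASO-Ctr and 1.33-fold (1.23 to 1.43; log2 0.41, adjusted p = 1.31e-05) against sO-L1. It was called in all 16 leave-out fits of each comparison.

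SHMT2, the mitochondrial serine hydroxymethyltransferase, was at 247, 241, 235 and 241 CPM in ASO-L1 libraries, 257, 228, 212 and 207 CPM with sO-L1, and 253, 221, 203 and 211 CPM with ASO-Ctr. The groups overlapped through replicate 1, which was high in all 3. The ASO-L1 libraries spread less (SD 4.92 CPM) than those of sO-L1 (22.5 CPM) and ASO-Ctr (22.1 CPM). The fold against ASO-Ctr was 1.09 (1.02 to 1.17; log2 0.13, edgeR adjusted p = 0.0342), with 3 of 4 replicate numbers higher. Of the 16 leave-out fits 10 did not call SHMT2 (range of the adjusted p 2.78e-05 to 0.23), namely those without replicate 2, 3 or 4, without ASO-L1 replicate 2, 3 or 4, without sO-L1 replicate 2 and without ASO-Ctr replicate 2, 3 or 4. Dropping the replicate block also ended it (adjusted p = 0.211). From sO-L1 it differed by log2 0.10, without a call (adjusted p = 0.0905), but was called without replicate 1 (adjusted p = 0.000365) or ASO-L1 replicate 1.

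ALDH1L2, which oxidises formyl-tetrahydrofolate to carbon dioxide in mitochondria and yields NADPH, went the other way from MTHFD2. It was at 24.4, 25.5, 20.5 and 19.2 CPM in ASO-L1 libraries, 24.4, 29.3, 26.2 and 25.5 CPM with sO-L1, and 25.0, 30.6, 26.2 and 23.7 CPM with ASO-Ctr. The ranges overlapped, and in replicate 1 the 3 groups differed little. It was 1.18-fold lower (1.07 to 1.30) against each of ASO-Ctr (log2 -0.24, SE 0.07, edgeR adjusted p = 0.00919) and sO-L1 (log2 -0.24, adjusted p = 0.00863). The call against sO-L1 was lost without replicate 3, without replicate 4 and without sO-L1 replicate 4, and the call against ASO-Ctr without replicate 2 or 3. Without the replicate block the adjusted p was 0.082 against both.

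Enzymes that run the same or neighbouring folate reactions were set beside these members. SHMT1, the cytosolic counterpart of SHMT2, was lower at 36.2, 41.8, 43.1 and 43.9 CPM with ASO-L1, against 44.9, 44.3, 48.0 and 50.3 CPM with ASO-Ctr (log2 -0.18, SE 0.05, edgeR adjusted p = 0.00936; with no replicate block 0.0503). Against sO-L1 the ranges of SHMT1 overlapped, and it was lower by log2 -0.15 (edgeR adjusted p = 0.0264). That call held in 9 of 16 leave-out fits and 4 of 8 other settings. MTHFD2L, a close relative of MTHFD2 in mitochondria, was 1.42-fold higher (1.26 to 1.59; log2 0.50, adjusted p = 7.6e-05) at 21.9 ± 2.55 CPM with ASO-L1, against 15.3 ± 0.946 CPM with ASO-Ctr (SD, n = 4 each). MTHFD1L, which releases formate from formyl-tetrahydrofolate in mitochondria, was lower against ASO-Ctr (109 ± 6.47 CPM in ASO-L1 cells, against 122 ± 5.06 CPM in ASO-Ctr cells, log2 -0.16, adjusted p = 0.00571), whereas its difference from sO-L1 did not pass (log2 -0.08, adjusted p = 0.128). MTHFD1, the trifunctional enzyme of the cytosol, was not called (287 ± 26.1 CPM in ASO-L1 cells, against 294 ± 11.3 CPM in ASO-Ctr cells, log2 -0.04, adjusted p = 0.566). ALDH1L1, the cytosolic partner of ALDH1L2, had at most 0.913 CPM in any library and was not called (log2 -0.70, SE 0.29, adjusted p = 0.0557).

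Transsulfuration divided between its 2 enzymes. CTH, which cleaves cystathionine to cysteine, was at 12.9, 13.05, 10.8 and 11.8 CPM in ASO-L1 libraries, 21.7, 15.8, 16.1 and 15.2 CPM with sO-L1, and 19.3, 16.4, 16.03 and 14.8 CPM with ASO-Ctr. All ASO-L1 libraries lay below all others. It was 1.36-fold lower (1.21 to 1.53; log2 -0.45, SE 0.08, edgeR adjusted p = 0.000276) against ASO-Ctr and 1.40-fold lower (1.25 to 1.58; log2 -0.49, adjusted p = 0.00011) against sO-L1, and both calls held in all 16 leave-out fits. CBS, which makes cystathionine, was at 358, 375, 373 and 398 CPM in ASO-L1 libraries, 391.9, 387, 364 and 366 CPM with sO-L1, and 403, 368, 376 and 377 CPM with ASO-Ctr. The 3 groups overlapped throughout. Its fold against ASO-Ctr had an interval of 0.925 to 1.05 (log2 -0.02, adjusted p = 0.758) and against sO-L1 one of 0.934 to 1.06 (log2 -0.0049, adjusted p = 0.939).

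PCK2, the mitochondrial carboxykinase that turns oxaloacetate into phosphoenolpyruvate, was at 57.4, 58.6, 51.3 and 58.7 CPM in ASO-L1 libraries, 79.5, 66.3, 57.6 and 59.3 CPM with sO-L1, and 79.0, 64.9, 54.8 and 60.5 CPM with ASO-Ctr. Replicate 1 stood high in both other groups but not with ASO-L1, and the ranges overlapped. It was 1.14-fold lower (1.03 to 1.25; log2 -0.18, edgeR adjusted p = 0.0275) against ASO-Ctr and 1.15-fold lower (1.05 to 1.26; log2 -0.20, adjusted p = 0.0148) against sO-L1. Against ASO-Ctr 8 of 16 leave-out fits lost the call: those without replicate 1, 2 or 3, without ASO-L1 replicate 1 or 2, and without ASO-Ctr replicate 1, 2 or 4. Without replicate 1 the log2 difference was -0.09 against ASO-Ctr (adjusted p = 0.121) and -0.12 against sO-L1 (adjusted p = 0.0348), and without ASO-L1 replicate 1 it was -0.09 and -0.12. The call against sO-L1 was lost without replicate 2, without replicate 3, without sO-L1 replicate 1 and without sO-L1 replicate 3, with adjusted p = 0.00258 to 0.0794 over the leave-out fits. With 1 surrogate variable the log2 difference was -0.0081 against ASO-Ctr (adjusted p = 0.93) and -0.055 against sO-L1 (0.427). With no replicate block neither was called (0.176 and 0.133), and a fit on ASO-L1 and ASO-Ctr alone gave 0.0582. PCK1, its cytosolic counterpart, had 0 counts in all 12 libraries, which allows at most 0.0534 to 0.128 CPM, depending on the library.

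ASNS makes asparagine from aspartate and glutamine. It was at 144, 136, 116 and 111 CPM in ASO-L1 libraries, 145, 122, 109 and 112 CPM with sO-L1, and 120, 115, 105 and 106 CPM with ASO-Ctr. The ASO-L1 and sO-L1 libraries covered nearly the same range. ASNS was 1.13-fold higher (1.06 to 1.21; log2 0.18, SE 0.05, edgeR adjusted p = 0.00587) against ASO-Ctr, a call lost without replicate 2 (adjusted p = 0.0544) or with no replicate block (0.135). From sO-L1 it differed by log2 0.06, without a call (interval -0.04 to 0.16, adjusted p = 0.351).

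**Figure D2:**
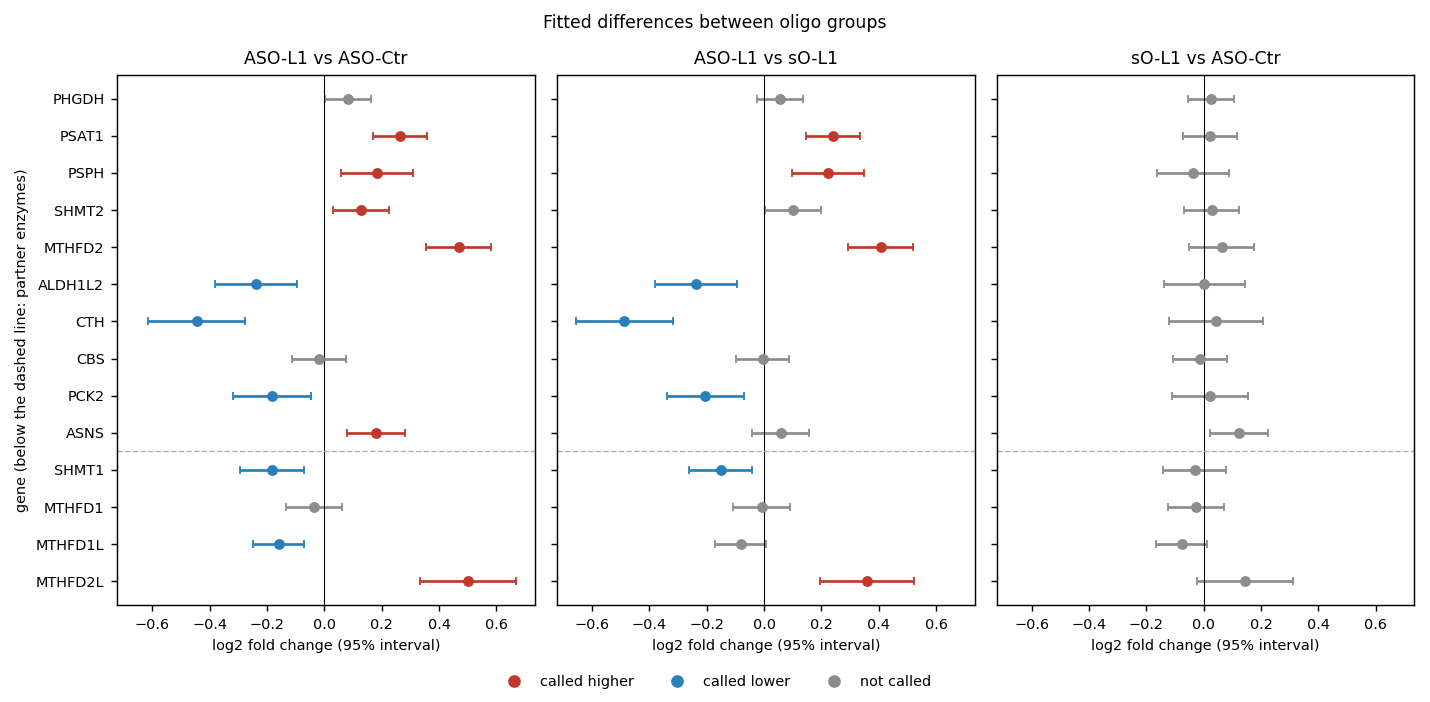
Fitted log2 fold changes with 95% intervals (horizontal axes) of the 10 enzymes and, below the dashed line, 4 partner enzymes of the folate cycle, in the 3 comparisons (panels); red and blue mark genes called higher and lower, grey those not called. MTHFD2 and CTH lie at 0.47 and -0.45 for ASO-L1 against ASO-Ctr, and no gene shown is called for sO-L1 against ASO-Ctr.

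Set against sO-L1, 3 of 10 members were higher with ASO-L1 (MTHFD2, PSAT1 and PSPH; 21.1% of all genes) and 3 of 10 lower (CTH, ALDH1L2 and PCK2; 22.9%), with a median log2 fold change of 0.06. This comparison shares its ASO-L1 libraries with the one against ASO-Ctr, so the pair are not independent. In either direction this was 6 of 10 members, against 44.0% of genes. The groups did not overlap for 4 of 10 members against ASO-Ctr, where 33.3% of all genes did not: 3 were higher (16.3% of genes) and 1 lower (17.0%). Against sO-L1 they did not overlap for 3 of 10 (32.1% of genes), 2 higher (16.0%) and 1 lower (16.2%). In the authors' deposited table for ASO-L1 against sO-L1, the log2 fold changes were 0.41 for MTHFD2, 0.24 for PSAT1, 0.22 for PSPH and -0.48 for CTH, with adjusted p-values of 1.6e-05, 0.000464, 0.00805 and 0.000278. The authors' deposited table gives ALDH1L2 -0.24 (adjusted p = 0.0514) and PCK2 -0.21 (adjusted p = 0.0499).

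The sense oligo was also set against the untargeted one. EdgeR called 0 of 10 members, while over all genes it called 0.290%, with 0.0695% higher and 0.220% lower. Of the members 1, ASNS, had a raw p below 0.05, and neither DESeq2 nor limma on the authors' log2 values called any (0 each). For 0 of 10 members did these groups separate without overlap, as 3.23% of all genes did, 1.24% higher and 1.99% lower. Log2 fold changes ran from -0.04 (PSPH) to 0.12 (ASNS). ASNS was higher in all 4 replicate numbers (log2 0.12, interval 0.02 to 0.22, edgeR adjusted p = 0.568), and a fit on these groups alone called it (adjusted p = 0.0311). None of its 16 leave-out fits did, the lowest adjusted p there being 0.0749. The same contrast tests whether the effect of ASO-L1 on a gene depended on which of both other oligos it was set against, and it was not called for any member.

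The members' rises and falls were not equal across the replicate numbers. Within replicate 1 the log2 CPM difference of ASO-L1 from ASO-Ctr was 0.73 for MTHFD2, 0.40 for PSAT1, 0.32 for PSPH, -0.58 for CTH and -0.46 for PCK2. In replicate 4 these were 0.30, 0.11, 0.02, -0.32 and -0.04, each of them smaller in size. SHMT2 and ALDH1L2 had the reverse order, with SHMT2 at -0.03 in replicate 1 against 0.19 in replicate 4, and ALDH1L2 at -0.04 against -0.30. In 8 of 10 members all 4 numbers moved the same way against ASO-Ctr, and in 6 of 10 against sO-L1. The share of all genes tested that did so was not computed, so these counts are not set apart from it. ASO-L1 replicate 1 and ASO-Ctr replicate 1 had the fewest counts of their groups, and the part of depth in these differences was not tested. Replicate 1 also had the highest mean log2 CPM over its 3 libraries for 9 of the 10 members. The exception was ALDH1L2, which was highest in replicate 2.

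**Figure D3:**
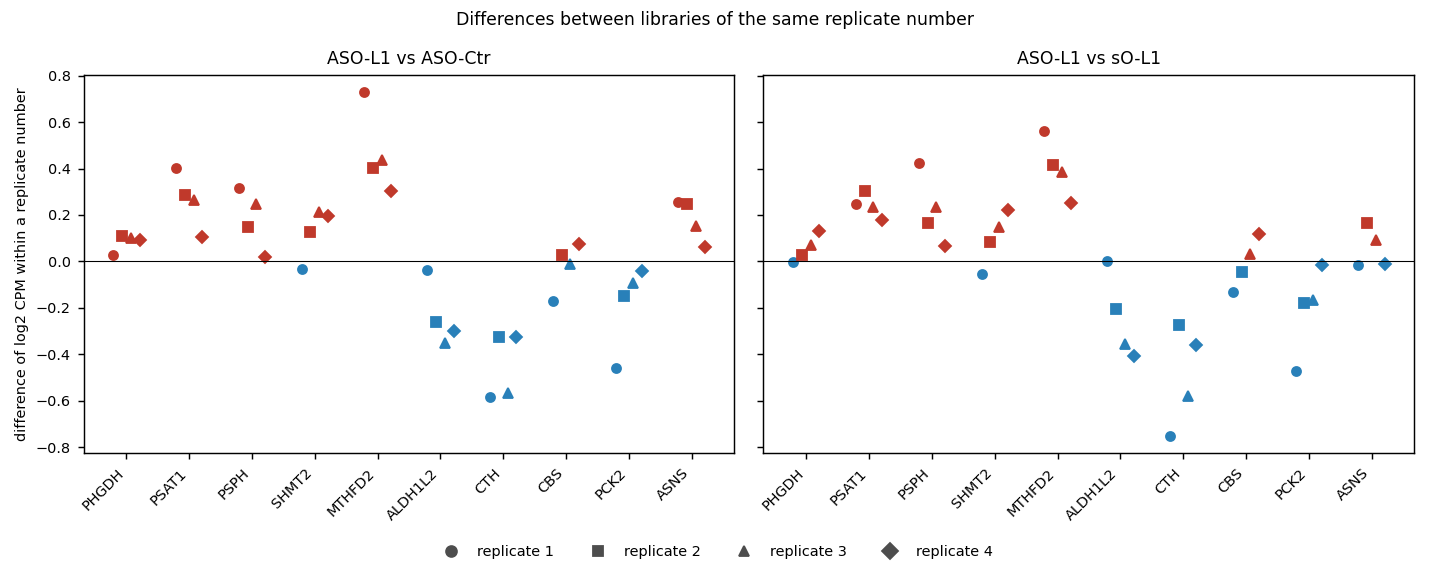
Difference of log2 CPM (vertical axis) between the ASO-L1 library and the ASO-Ctr (left) or sO-L1 (right) library of the same replicate number, for the 10 enzymes; symbols mark the number, red above 0 and blue below. For MTHFD2 the 4 differences from ASO-Ctr run from 0.30 to 0.73, and for CBS they lie on both sides of 0, at -0.17 to 0.08.

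Ratios of paired enzymes within a library do not depend on library scaling, and are given without a test. MTHFD2 over MTHFD1 was 1.40 ± 0.362 with ASO-L1, 1.03 ± 0.0714 with sO-L1 and 0.967 ± 0.0494 with ASO-Ctr (SD, n = 4 each). The lowest ASO-L1 library, at 1.11, was above the highest ASO-Ctr library at 1.02, though sO-L1 reached 1.13. SHMT2 over SHMT1 was 5.89 ± 0.648, 4.96 ± 0.674 and 4.76 ± 0.692 in that order, and overlapped between the groups. CTH over CBS was 0.0323 ± 0.00357 with ASO-L1, 0.0455 ± 0.00679 with sO-L1 and 0.0436 ± 0.00364 with ASO-Ctr, with no overlap of ASO-L1 with the others. PSAT1 over PHGDH was 1.29 ± 0.104, 1.13 ± 0.0504 and 1.13 ± 0.0301. MTHFD2 over MTHFD2L was alike in the 3 groups, at 18.0 ± 1.29 with ASO-L1, 17.4 ± 0.977 with sO-L1 and 18.6 ± 1.56 with ASO-Ctr.

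**Figure D4:**
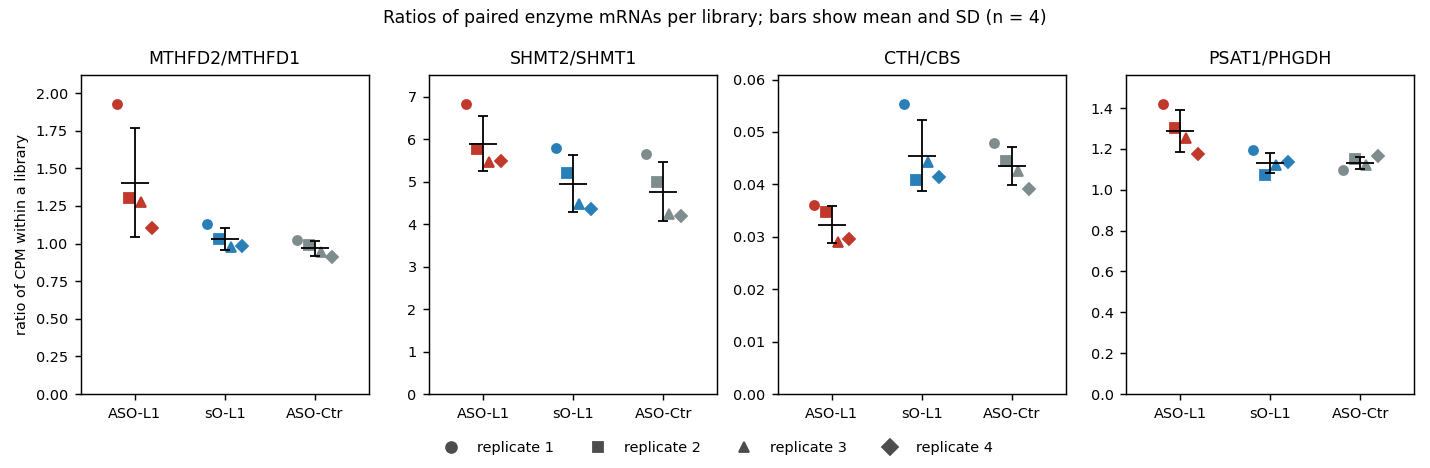
Ratio of the CPM of paired enzymes (vertical axes, from 0) in each library of ASO-L1, sO-L1 and ASO-Ctr (horizontal axes); symbols mark the replicate number, and black bars give the mean and SD of 4 libraries. CTH/CBS is 0.0289 to 0.0360 with ASO-L1, below every library of the other groups, which start at 0.0392.

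Per kilobase of exon, PSAT1 was the most abundant member in each group, at 190 ± 20.4 CPM per kb with ASO-L1, 160 ± 14.9 with sO-L1 and 157 ± 6.98 with ASO-Ctr. CBS (136 ± 6.02, 137 ± 5.08 and 138 ± 5.46 CPM per kb) and PHGDH (121 ± 3.85, 116 ± 7.76 and 114 ± 6.13) came next. The least abundant were CTH (5.67 ± 0.489, 8.04 ± 1.42 and 7.77 ± 0.895 CPM per kb) and ALDH1L2 (2.97 ± 0.397, 3.49 ± 0.279 and 3.49 ± 0.393). With ASO-L1, MTHFD2 (88.8 ± 13.9 CPM per kb) and SHMT2 (79.7 ± 1.63) were in this order by their means, SHMT2 lying within the SD of MTHFD2. In ASO-Ctr SHMT2 (73.3 ± 7.28 CPM per kb) was above MTHFD2 (63.7 ± 1.38). PSPH and PCK2 also changed places by their means, at 19.9 ± 1.76 and 17.7 ± 1.09 CPM per kb with ASO-L1, against 17.5 ± 0.477 and 20.3 ± 3.23 with ASO-Ctr. Their spreads overlapped in both groups. Summed over the 10 members, CPM was 2011 ± 123 with ASO-L1, 1830 ± 133 with sO-L1 and 1793 ± 89.0 with ASO-Ctr. Exon lengths came from a newer genome build than the counts, so these values per kilobase are approximate.

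Over the 12 libraries, with each replicate number centred on its mean log2 CPM, the members' levels were correlated, as a description of libraries that share groups and scaling. MTHFD2 followed PSAT1 (Pearson r = 0.972), PSPH (0.898) and ASNS (0.746), and ran against CTH (-0.927) and PCK2 (-0.893). PHGDH followed SHMT2 (0.925) and ran against ALDH1L2 (-0.926). CBS had no r above 0.651 in size with another member, its highest being with PCK2. Of 45 pairs, 8 had r above 0.7 and 9 below -0.7. The centring leaves the differences between oligo groups in these values. The share over pairs of all genes was not computed, so these counts are not set apart from it. Among 10539 other genes that averaged 200 counts or more, the single most similar to each member over the same 12 libraries was ZSCAN32 for MTHFD2 (r = 0.998), GNPTG for PSAT1 (0.994), SPTLC1 for CTH (0.994), MEF2D for PSPH (0.991), CALM3 for PCK2 (0.991), PFDN6 for SHMT2 (0.981), NOP9 for ALDH1L2 (0.978), SKP1 for ASNS (0.976), SIVA1 for PHGDH (0.96) and ARFGAP2 for CBS (0.95). Each of these is the highest of 10539 values over 12 libraries, so a high r comes with the search itself. No link between the genes was tested.

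The listed regulators ATF4, TRIB3 and DDIT3 had larger fold changes than any member. ATF4 was at 420, 376, 374 and 353 CPM in ASO-L1 libraries, 285, 255, 256 and 252 CPM with sO-L1, and 290, 249, 264 and 269 CPM with ASO-Ctr, with no overlap (log2 0.51 against ASO-Ctr and 0.54 against sO-L1, edgeR adjusted p = 6.57e-08 and 3.58e-08). TRIB3, a pseudokinase induced by ATF4, was 4.51-fold higher (3.84 to 5.29; adjusted p = 1.03e-09) at 48.0 ± 23.0 CPM with ASO-L1, against 10.1 ± 2.09 CPM with ASO-Ctr. DDIT3, which encodes CHOP, was 5.94-fold higher (4.76 to 7.41; adjusted p = 4.82e-09) at 25.3 ± 11.1 CPM with ASO-L1, against 4.08 ± 0.715 CPM with ASO-Ctr. No member reached 1.5-fold in either direction in any comparison, the largest size being 0.49 on the log2 scale.

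Around the members, 94 further genes of serine use, folate, methionine, cysteine, purine, amino acid and pyruvate metabolism were listed, and 88 passed the filter. With ASO-L1, 18 were higher and 31 lower than with ASO-Ctr, with a median log2 fold change of -0.08 (background 21.2% and 23.1% of genes). Against sO-L1, 16 were higher and 29 lower (21.1% and 22.9% of genes). Without the replicate block 16 were lower against ASO-Ctr and 19 against sO-L1, with no share of all genes given for that fit. For sO-L1 against ASO-Ctr 0 of 88 passed in edgeR, 2 had a raw p below 0.05, 0 passed in DESeq2 and 1 in limma on the authors' log2 values.

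Genes that use serine or cleave glycine fell or were not called: 5 of 10 tested were lower and 0 higher against ASO-Ctr. Over all genes tested 23.1% were lower and 21.2% higher, shares that also stand beside the counts of the lists below. SPTLC2 and SPTLC1, subunits of the serine palmitoyltransferase that starts sphingolipid synthesis, were at 81.6 ± 9.81 and 69.0 ± 6.07 CPM with ASO-L1, against 123 ± 4.62 and 95.9 ± 2.13 CPM with ASO-Ctr (log2 -0.59 and -0.47, edgeR adjusted p = 1.26e-07 and 3.5e-06). GLDC and AMT, components of the glycine cleavage system, were lower by log2 -0.33 and -0.26. GLDC was at 216 ± 26.1 CPM with ASO-L1, against 270 ± 6.51 CPM with ASO-Ctr (adjusted p = 0.000143). The fifth was SHMT1.

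In the folate list 3 of 16 tested genes were higher and 2 lower. Besides MTHFD2L these were SLC25A32, the carrier of folate into mitochondria (51.8 ± 1.01 CPM in ASO-L1 cells, against 42.2 ± 3.72 in ASO-Ctr cells, log2 0.30, edgeR adjusted p = 0.000411), and SLC19A1, the plasma membrane folate carrier (log2 0.22, adjusted p = 0.0172). MTHFD1L and MTFMT, which formylates the initiator tRNA of mitochondria, were lower (MTFMT log2 -0.24, adjusted p = 0.0298, and 0.14 without the replicate block). In the methionine cycle 4 of 11 were higher and 5 lower. MTRR, which keeps methionine synthase active, was 79.5 ± 6.12 CPM in ASO-L1 cells, against 58.4 ± 2.16 CPM in ASO-Ctr cells (log2 0.44, adjusted p = 5.31e-06). AHCY, which clears S-adenosylhomocysteine, MAT2A, which makes S-adenosylmethionine, and its partner MAT2B were higher by log2 0.20, 0.20 and 0.14. AHCYL1, AHCYL2, MTR and MTAP were lower, at log2 -0.18 to -0.14, and so was MAT1A, at 0.217 ± 0.0761 CPM in ASO-L1 cells, against 0.552 ± 0.223 CPM in ASO-Ctr cells. MAT2B, AHCYL1, AHCYL2, MTR and MTAP were not called without the replicate block.

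Downstream of cysteine 1 of 14 genes was higher and 6 lower. The riser was CHAC1, a glutathione-degrading enzyme and ATF4 target (28.7 ± 9.22 CPM in ASO-L1 cells, against 20.4 ± 7.08 in ASO-Ctr cells, log2 0.49, edgeR adjusted p = 6.89e-06, and 0.138 without the replicate block). SUOX, the sulfite oxidase, was lower at 14.8 ± 3.23 CPM with ASO-L1, against 22.2 ± 1.21 CPM with ASO-Ctr (log2 -0.58, adjusted p = 0.000126), and MPST, a sulfurtransferase, by log2 -0.24. In purine synthesis 3 of 13 were higher (IMPDH1, IMPDH2 and ADSL, log2 0.78, 0.22 and 0.22) and 4 lower (GMPS, PFAS, PRPS2 and ATIC, log2 -0.29, -0.20, -0.16 and -0.11). IMPDH1, which starts guanine nucleotide synthesis, was 17.6 ± 2.14 CPM in ASO-L1 cells, against 10.2 ± 1.26 CPM in ASO-Ctr cells (adjusted p = 1.01e-05). PRPS2 and ATIC lost their calls without the replicate block.

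Beside ASNS, 6 of 15 genes of asparagine, aspartate, glutamate and proline metabolism were higher and 5 lower. Among those higher was the aminotransferase GOT1 (80.4 ± 2.15 CPM in ASO-L1 cells, against 66.5 ± 4.37 in ASO-Ctr cells, log2 0.28, edgeR adjusted p = 0.000187). PYCR1, ALDH18A1 and PYCRL, enzymes of proline synthesis, were lower at log2 -0.25, -0.14 and -0.20, and so were ASRGL1 and ALDH4A1 (-0.22 and -0.26). ALDH18A1, ALDH4A1 and PYCRL lost their calls without the replicate block. Beside PCK2, 1 of 9 genes of phosphoenolpyruvate and pyruvate was higher and 4 were lower. PDK1, the kinase that shuts pyruvate dehydrogenase, was 43.8 ± 5.65 CPM in ASO-L1 cells, against 79.6 ± 16.3 CPM in ASO-Ctr cells (log2 -0.84, adjusted p = 8.46e-07), and PDHA1, its substrate subunit, was 186 ± 4.86 CPM in ASO-L1 cells, against 152 ± 7.24 CPM in ASO-Ctr cells (log2 0.29, adjusted p = 2.28e-05). Pyruvate carboxylase PC, PGAM1 and ME2 were lower by log2 -0.40, -0.21 and -0.16, ME2 without a call when the replicate block was left out. Of the pathway genes named around the members, AHCYL1, ME2, ASRGL1, ALDH18A1, PRPS2 and PYCR1 were called in 12 to 15 of 16 leave-out fits, AHCYL2, MTR, MAT1A, SLC19A1 and ALDH4A1 in 9 to 11, MAT2B, MTAP and MTFMT in 7 to 8, ATIC in 3 and PYCRL in 2, and the others in all 16. With 1 surrogate variable SHMT1, MTHFD1L, AMT, MTFMT, MAT2A, MAT2B, AHCYL2, MPST, PRPS2, ATIC, PYCR1, ASRGL1, ALDH18A1, ALDH4A1, PYCRL, PC, PGAM1 and ME2 lost their calls. Among these, AMT was then at log2 -0.071, PGAM1 at -0.025, MAT2A at 0.047, MPST at -0.12 and PC at -0.23. A fit on ASO-L1 and ASO-Ctr alone did not call MTFMT, MAT2B, AHCYL2, MTR, MTAP, ATIC or PYCRL, and ATIC and PYCRL were also lost with DESeq2. All these calls of pathway genes are against ASO-Ctr. Against sO-L1, MTHFD1L, MTFMT, MAT2B, MTR, ATIC, ALDH18A1 and PYCRL were not called. There the folate list had 3 of 16 genes higher and 0 lower, against 21.1% and 22.9% of all genes.

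Promoters were searched for the letters that ATF4 and its C/EBP partners bind, and for 3 other known motifs. RefSeq windows of 300 bases (250 before and 50 after the start) were at hand for 7 of 10 members, on GRCh38.p14, with 10 windows in all because some genes have several starts. TGATGNAA, the core of the C/EBP-ATF element, was searched on both strands. It was found in 1 of these 10 windows, an ASNS one, at position -68 from the start, and in 3.62% of 35116 windows of all genes. TGACNNNGC, the core of the antioxidant response element, was found in 2 of 10 member windows (MTHFD2 and CBS) and in 13.3% of all windows. The E-box CACGTG was in 0 of 10 and in 7.26% of all, and CCAAT in 7 of 10, from 6 members, and in 34.6% of all. These motifs did not overlap each other in the windows printed. The windows of ASNS, and of MTHFD2 and CTH, which had the largest rise and fall, are shown 5′ to 3′ on the gene's strand, with TGATGNAA and TGACNNNGC in capitals. ASNS lies at chr7:97872359-97872658 (minus strand), MTHFD2 at chr2:74198365-74198664 (plus strand) and CTH at chr1:70411018-70411317 (plus strand).
ASNS: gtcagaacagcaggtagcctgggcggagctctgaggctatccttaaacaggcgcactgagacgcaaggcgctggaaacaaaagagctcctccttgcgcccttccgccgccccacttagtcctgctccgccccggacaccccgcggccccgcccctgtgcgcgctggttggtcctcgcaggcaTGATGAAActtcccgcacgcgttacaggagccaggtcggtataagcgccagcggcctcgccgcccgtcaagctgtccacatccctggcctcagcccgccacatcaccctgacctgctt
MTHFD2: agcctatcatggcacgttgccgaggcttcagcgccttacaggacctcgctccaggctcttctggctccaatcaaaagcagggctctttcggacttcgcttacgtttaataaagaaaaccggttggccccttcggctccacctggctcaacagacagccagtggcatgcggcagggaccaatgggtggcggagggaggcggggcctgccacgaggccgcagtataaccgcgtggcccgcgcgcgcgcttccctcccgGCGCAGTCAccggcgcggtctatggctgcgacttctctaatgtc
CTH: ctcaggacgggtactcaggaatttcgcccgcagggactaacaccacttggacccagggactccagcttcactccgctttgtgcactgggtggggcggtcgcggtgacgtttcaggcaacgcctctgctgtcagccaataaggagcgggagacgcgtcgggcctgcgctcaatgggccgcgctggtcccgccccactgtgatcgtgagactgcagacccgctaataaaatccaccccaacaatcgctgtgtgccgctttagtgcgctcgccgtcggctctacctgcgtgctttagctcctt
The CTH window has neither of these, and the MTHFD2 match reads GCGCAGTCA, on the strand opposite to the gene. A match is only a run of letters in this window, and binding was not measured here.

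Counts of single members were little open to sharing with copies. Pseudogene entries of PSAT1 (4 entries), PSPH (1) and ASNS (4) held at most 0.368% of the counts of their parent gene, the highest being ASNSP1 with 186 counts over all libraries.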

How the data were processed

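The series is RNA sequencing of 12 libraries, 3 groups of 4, made from poly(A) RNA of 80 to 130 ng total RNA with a stranded kit, per the labels' protocols. The deposited counts are raw read counts by gene, taken after duplicates were removed, per the labels; without molecular identifiers this can compress highly expressed genes. The submitters' processing notes name Trim Galore 0.4.0, TopHat2 2.0.13, featureCounts of Subread 1.5.0 and hg19; no source used here gives the annotation. A deposited table holds log2 normalized values after a batch correction by the authors, and another the authors' log2 fold changes, p-values and adjusted p-values for ASO-L1 against sO-L1, whose moderated statistic and log odds score, also deposited, were not used.

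Differential expression used edgeR 4.0.16 under R 4.3.3. A two-sided quasi-likelihood F-test with TMM scaling was fitted to the 12 libraries together, its terms being oligo group and replicate number. Low genes were dropped by filterByExpr (minimum count 10), leaving 17264 genes, and p-values were Benjamini-Hochberg adjusted over these. Intervals are 95% intervals from the same F-test, and SE is the log2 fold change over the square root of F. CPM uses TMM-scaled library sizes, and log2 CPM a prior count of 2. Deviations of libraries of the same replicate number from their group means correlated at 0.215 to 0.726 in all 12 pairs (median 0.489), over the 0.1 needed. Other pairs ran from -0.608 to 0.56 (median -0.225). Deviations sum to 0 within a group, which pushes other pairs below 0, so their median is not an independent contrast. The authors' file names also state a batch correction, and the number was kept as a block. No 2 libraries were identical. The labels do not say that replicates were separate cultures, so p-values measure the spread between these samples, which may be technical. Intervals rest on that same spread and cover no variation beyond these samples, and the floor of 3 counts covers counting error only. Lengths are exon unions of GENCODE 29 (GRCh38). DESeq2 1.42.0, limma 3.58.1 and sva 3.50.0 gave alternatives.

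The members, the other pathway and marker lists and the tests were chosen with earlier results of these data known. Genes named are all members, their partners in the other compartment, ATF4, TRIB3 and DDIT3, up to 3 called genes with the smallest adjusted p per list, all called genes where 5 or fewer of a list moved one way, and the most similar gene of each member. Some genes that this rule names are not reported here.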

Additional observations from a re-analysis of the deposited data

Results flagged for a closer look

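In 2 of 30 groups of 4 libraries, 1 library lay further from the rest than Dixon's 95% limit allows, and chance alone would give about 1 in 20 groups. MTHFD2 was highest in ASO-Ctr replicate 1, at 293 CPM, against 280 to 281 CPM in the other ASO-Ctr libraries. PSPH was lowest in ASO-Ctr replicate 3, at 36.6 CPM, against 38.5 to 38.8 CPM in the other ASO-Ctr libraries. Without ASO-Ctr replicate 1 MTHFD2 was still called, and without ASO-Ctr replicate 3 PSPH was not.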

How the results depend on the processing

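MTHFD2, PSAT1 and CTH kept their direction and call under every alternative run, in both comparisons with ASO-L1. Members called against ASO-Ctr were 3 higher and 1 lower without the replicate block, instead of 5 and 3, and 2 to 6 higher and 1 to 3 lower over the fits that left out 1 library or number. Against sO-L1 1 was lower without the block, instead of 3, and the leave-out fits gave 3 to 5 higher and 1 to 3 lower. Other pathway genes lower against ASO-Ctr numbered 16 without the block, 12 with 1 surrogate variable and 16 to 31 in leave-out fits (31 as reported). Against sO-L1 they numbered 19, 15 and 15 to 34 (29 as reported). For these member and pathway counts the shares of all genes under the same settings are not given here. For sO-L1 against ASO-Ctr the fit on only these groups called 1 member (ASNS) higher, and 2 (surrogate variable), 1 (groups alone), 1 (limma) and 0 to 1 (leave-out) other pathway genes were higher. Over all genes of that comparison, calls higher were 12 as reported, 2 without the block, 46 without the filter, 181 with the surrogate variable, 263 on the groups alone, 32 by DESeq2, 82 by limma and 1 to 169 in leave-out fits. Calls lower were 38, 15, 95, 287, 377, 126 by limma and 8 to 241 in leave-out fits. Directions turned only for values that were not called. With the surrogate variable the log2 difference of ASO-L1 was 0.08 for CBS and 0.067 for MTHFD1 against ASO-Ctr and 0.079 and 0.080 against sO-L1, and that of sO-L1 from ASO-Ctr was -0.020 for ALDH1L2 and 0.0011 for CBS. Leave-out fits ran from -0.063 to 0.038 for CBS and -0.069 to 0.024 for MTHFD1 against ASO-Ctr, and -0.052 to 0.041 and -0.045 to 0.059 against sO-L1. For sO-L1 against ASO-Ctr they ran from -0.022 to 0.067 for PSAT1, -0.063 to 0.0053 for PSPH, -0.043 to 0.045 for ALDH1L2, -0.024 to 0.099 for CTH, -0.042 to 0.015 for CBS, -0.020 to 0.067 for PCK2 and -0.14 to 0.057 for TRIB3. The causes were not tested. The smaller changes, of SHMT2, PSPH and PCK2, lost their call against ASO-Ctr in 6 to 10 of 16 leave-out fits, with log2 differences of 0.088 to 0.19, 0.13 to 0.25 and -0.25 to -0.089 over these fits.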
